A study of Mus musculus with 9 samples.

Results

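The genes of 10 transcription factors that mark mesenchymal cells were examined in primary oviductal muscle cells of the mouse: Nr2f1, Nr2f2, Tcf21, Twist1, Twist2, Prrx1, Meox2, Foxf1, Osr2 and Meis1. They are 10 of the 21853 protein-coding genes of the GENCODE annotation of GRCm38 (mm10). For each gene, all peaks of the histone marks H3K27ac and H3K4me1 that overlapped the gene body or the 50 kb on either side were collected. A peak was a promoter peak if it touched the 1 kb on either side of a protein-coding transcript start, intragenic if it lay elsewhere in the gene body, and flanking otherwise.

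The cells came from WT mice aged 8 to 12 weeks on D2 of pregnancy and were digested out of the oviduct and plated for some hours before fixation. Each library was made from 50000 cells by ChIC-Seq, in which an antibody carries protein A fused to MNase to its target so that nearby chromatin is cut and sequenced. H3K27ac, H3K4me1 and the IgG control had 3 libraries each. All came from the same genotype and day, so the comparison is between marks and between genes, not between conditions. Filtering and plating were the only purification, and no sort was described.

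H3K27ac is deposited at active promoters and enhancers. H3K4me1 is typical of enhancers and of the shoulders of active promoters, and is usually low right at a CpG-rich start, where trimethylation takes its place. The 10 factors include nuclear receptors without a required ligand (Nr2f1 and Nr2f2, also called COUP-TFI and COUP-TFII), basic helix-loop-helix proteins that bind E-boxes as dimers (Tcf21, Twist1 and Twist2), homeodomain proteins (Prrx1, Meox2 and Meis1), a forkhead protein (Foxf1) and a zinc finger protein (Osr2). In embryos they pattern the mesenchyme of limb, gut, kidney and face, and Nr2f2 is known as a regulator of the stroma of the female reproductive tract.

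The replicate lists held 93684 to 152889 peaks, of which 111 to 162 lay in the windows of the 10 genes. They were called from 40551842 to 78891920 fragments against only 3110985 to 3713369 IgG fragments. Some lists shared a control. IgG replicate 2 served H3K27ac replicate 2 together with replicates 1 and 2 of H3K4me1, IgG replicate 3 served replicate 3 of both marks, and IgG replicate 1 served H3K27ac replicate 1 only. The name of the cells was set against marker genes. Of 10 smooth muscle genes, 4 had an H3K27ac promoter peak in all 3 lists, as did 45.9% of all protein-coding genes. These were Acta2, Des, Smtn and Synpo2, which also had H3K4me1 promoter peaks in all 3 lists. H3K4me1 promoter peaks in all 3 lists were found at 5 of the 10, against 27.9% of all genes. Myh11, the smooth muscle myosin heavy chain, had no H3K27ac promoter peak in the 3 replicate lists and one of 437 bp in the pooled list. Of 8 fibroblast or stromal genes 7 had such a peak, of 9 epithelial genes 0, of 7 endothelial genes 1, of 8 blood genes 2 and of 4 mesothelial genes 1, which was Wt1. Of the epithelial list Epcam and Pax8 had no promoter peak of either mark in a replicate list, though Pax8 had an H3K27ac peak of 1389 bp in the pooled list. Krt8, a keratin of simple epithelia, had H3K4me1 promoter peaks in all 3 lists and an H3K27ac peak of 3346 bp in replicate 3, and the other 6 each had a promoter peak of a mark in at least 1 replicate list. The windows of the stromal genes were also the more covered, with a median of 25.0% under H3K27ac peaks against 6.37% for the smooth muscle genes. Once peaks with a −log10 p-value below 1.3 were left out, H3K27ac in all 3 lists was kept by 30.2% of all genes. It was kept by 1 of the 10 smooth muscle genes, Smtn, and by 5 of the 8 stromal genes. Fewer cells of a type and less of a mark per cell cannot be told apart in such libraries, and the part of stromal cells in the values below was not tested.

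Promoters of 8 of the 10 genes were matched in the RefSeq table of GRCm38.p6, with 9 entries of 300 bp (250 bp before and 50 bp after a start), and Foxf1 and Osr2 were not matched. Of these, 4 are shown because they span the patterns described below: the start of Nr2f2, which lay in wide H3K27ac peaks, that of Meis1, which had H3K27ac without H3K4me1, that of Twist1, which no peak covered, and that of Meox2, which H3K4me1 peaks covered and H3K27ac peaks did not. They are written 5′ to 3′ along transcription, with CpG dinucleotides in capitals.
Nr2f2 promoter, chr7:70366697-70366996, minus strand: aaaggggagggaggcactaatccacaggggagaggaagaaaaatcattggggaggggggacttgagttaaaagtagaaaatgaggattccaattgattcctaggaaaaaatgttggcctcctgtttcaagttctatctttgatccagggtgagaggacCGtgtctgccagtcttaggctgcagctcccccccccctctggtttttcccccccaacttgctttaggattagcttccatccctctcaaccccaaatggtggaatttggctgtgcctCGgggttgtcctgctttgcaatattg
Meis1 promoter, chr11:19018920-19019219, minus strand: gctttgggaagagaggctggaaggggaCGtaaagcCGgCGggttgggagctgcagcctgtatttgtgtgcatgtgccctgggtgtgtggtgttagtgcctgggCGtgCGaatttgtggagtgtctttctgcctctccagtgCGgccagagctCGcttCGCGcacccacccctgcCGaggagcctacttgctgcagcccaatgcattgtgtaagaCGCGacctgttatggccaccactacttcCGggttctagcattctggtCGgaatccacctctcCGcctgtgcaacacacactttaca
Twist1 promoter, chr12:33957421-33957720, plus strand: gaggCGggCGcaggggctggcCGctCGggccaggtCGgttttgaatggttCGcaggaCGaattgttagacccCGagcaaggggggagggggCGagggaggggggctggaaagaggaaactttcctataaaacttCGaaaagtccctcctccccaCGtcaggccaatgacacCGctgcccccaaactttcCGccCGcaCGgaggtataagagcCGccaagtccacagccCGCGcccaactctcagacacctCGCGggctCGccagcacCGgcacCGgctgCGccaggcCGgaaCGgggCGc
Meox2 promoter, chr12:37108290-37108589, plus strand: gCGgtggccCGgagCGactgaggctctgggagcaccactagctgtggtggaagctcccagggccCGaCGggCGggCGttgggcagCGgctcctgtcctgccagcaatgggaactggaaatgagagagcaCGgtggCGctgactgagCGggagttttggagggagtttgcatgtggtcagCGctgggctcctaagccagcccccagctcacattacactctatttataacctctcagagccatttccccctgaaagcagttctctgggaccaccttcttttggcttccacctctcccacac

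The starts differed widely in base composition. The Nr2f2 entry held 2 CpGs at 49.7% G + C, and H3K27ac peaks spanned all 300 bp of it in 3 of 3 lists, H3K4me1 peaks in 2 of 3. The Meis1 entry held 15 CpGs and was spanned by H3K27ac in 3 lists and by H3K4me1 in 0. The Twist1 entry was the most CpG-rich of the 9, with 27 CpGs at 66.0% G + C, yet no list of either mark spanned it. The Meox2 entry held 12 CpGs and was spanned by H3K4me1 in 2 lists and by H3K27ac in 0. Over the 9 entries G + C ran from 43.0% to 68.0% with a median of 58.3%, against a median of 52.7% over the 32841 entries of the table. H3K27ac spanned both the entry with the fewest CpGs, that of Nr2f2, and the CpG-rich entry of Twist2, with 25, in all 3 lists.

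H3K27ac promoter peaks were present in all 3 lists at 6 of the 10 genes, namely Nr2f2, Tcf21, Twist2, Prrx1, Osr2 and Meis1. This rule was met by 45.9% of all protein-coding genes. The share of members was thus not far from that of all genes. The medians of peak width lay further apart, though not every marked member had a wide peak. The median of the widest promoter peak over the 8, 7 and 8 marked members was 4694 bp, 9149 bp and 7574 bp in replicates 1, 2 and 3. Over all marked genes it was 2022 bp, 2081 bp and 1818 bp. Narrow peaks of 239 bp to 683 bp were found at Nr2f1 and Twist1 in replicate 3 and at Meox2 in replicates 1 and 2. Of the stromal genes, Col3a1 likewise had wide peaks of 11426 bp, 14129 bp and 8684 bp. Thy1 reached only 2432 bp and 1809 bp in replicates 1 and 2, with none in replicate 3. For H3K4me1 the medians of the members were the lower, at 693 bp, 1099 bp and 653 bp against 1169 bp, 1368 bp and 1263 bp for all marked genes. They rest on only 5, 6 and 4 marked members.

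**Figure D1:**
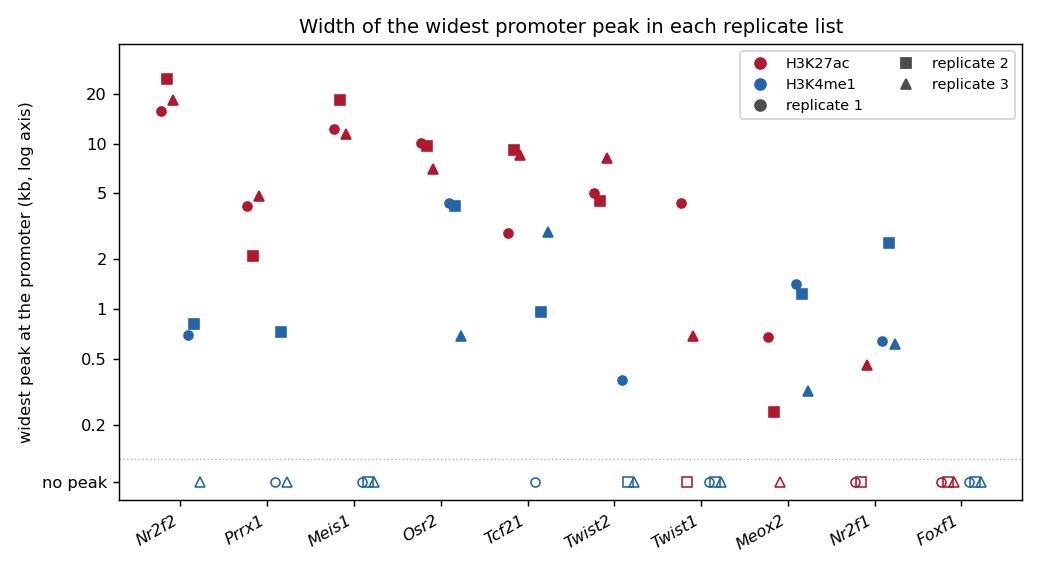
Width in kb (log axis) of the widest peak touching a promoter window of each gene, with H3K27ac in red, H3K4me1 in blue and a symbol for each of the 3 replicate lists; open symbols mark lists without a promoter peak. Genes are ordered by H3K27ac coverage of their window, and the H3K27ac peaks of Nr2f2, Meis1, Osr2, Tcf21, Twist2 and Prrx1 lie above 2 kb in every list.

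Nr2f2 had the widest acetylated promoter. Its gene lies at chr7:70351944-70366735 on the minus strand, and its widest H3K27ac promoter peak measured 15678 bp, 24710 bp and 18437 bp in replicates 1, 2 and 3. All 3 exceeded the widest promoter peaks of at least 99.6% of the marked genes of their list. In the pooled list, called on the 3 libraries together, the peak extended over 45763 bp and ranked 4 by length among 64818 peaks and 2 among the 12768 that touched a promoter. H3K27ac peaks covered 95.4%, 100% and 100% of the gene body. H3K4me1 promoter peaks were short, with 693 bp and 451 bp in replicate 1, 808 bp in replicate 2 and none in replicate 3, and H3K4me1 covered 21.8%, 14.3% and 9.63% of the gene body. The mean pileup of the widest H3K27ac peak was 13.1 to 15.5 times the genome-wide mean, and that of the H3K4me1 promoter peaks 4.90 to 5.65 times that mean. In replicate 1 the widest of these peaks lay 7511 bp downstream of the 5′ end, and the peak over the 5′ end itself measured 15417 bp at 11.9 times the mean. Over the 5′ end of Nr2f2 every H3K27ac peak was wider and higher than the H3K4me1 peaks there.

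Nr2f1, the paralog of Nr2f2, showed the opposite picture. Its gene lies at chr13:78188973-78199757 on the minus strand. H3K27ac touched a promoter window only in replicate 3, with a peak of 459 bp at 4.88 times the mean coverage, the lowest height in that list. H3K4me1 was present in all 3 lists, with widest peaks of 637 bp, 2498 bp and 617 bp. These did not share a position: those of replicates 1 and 2 lay just upstream of the 5′ end, while that of replicate 3 lay 1481 bp downstream of it, within reach of another annotated start. An antisense transcript, A830082K12Rik, starts 19 bp from a start of Nr2f1, and peaks there cannot be assigned to either gene. None of the promoter peaks of Nr2f1 in the replicate lists had a −log10 p-value of 1.3 or more.

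Among the helix-loop-helix factors, Tcf21 and Twist2 were acetylated at the start and Twist1 was not. Tcf21 (chr10:22817281-22820174, minus strand) is a factor of the mesenchyme of kidney, lung and heart and of fibroblast fate. Its H3K27ac promoter peak measured 2866 bp, 9149 bp and 8538 bp, and in the narrower replicate 1 separate peaks lay on either side of it. Its H3K4me1 promoter peaks measured 956 bp and 2904 bp in replicates 2 and 3 and were missing in replicate 1. Twist2 (chr1:91801461-91848028, plus strand), a repressor expressed in dermal and other fibroblasts, had H3K27ac peaks of 5023 bp, 4488 bp and 8155 bp over its start, and H3K4me1 touched the promoter only in replicate 1 with a peak of 375 bp.

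Twist1, a regulator of mesoderm and of epithelial to mesenchymal transition, stood apart from Twist2. Its gene is short, at chr12:33957671-33959829 on the plus strand. H3K27ac touched the promoter window in replicate 1 with a peak of 4365 bp that began 582 bp downstream of the start and with a peak of 433 bp that ended 885 bp upstream of it. It touched the window in replicate 3 with a peak of 683 bp that began 962 bp downstream. Replicate 2 had its nearest peak inside the gene but outside the window. No H3K4me1 list held a promoter peak at Twist1. H3K27ac peaks covered 73.0%, 41.6% and 31.6% of the gene body, and no peak of the 6 lists covered the 5′ end.

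Among the homeodomain genes, Meis1 and Prrx1 had H3K27ac promoter peaks in all 3 lists and Meox2 in 2. Meis1, a partner of Pbx and Hox proteins, spans chr11:18879817-19018985 on the minus strand. Its H3K27ac promoter peak measured 12213 bp, 18466 bp and 11359 bp, and in the pooled list its 20394 bp ranked 32 among promoter peaks. No H3K4me1 list held a peak in any of its protein-coding promoter windows. An H3K27ac promoter peak in all 3 lists with H3K4me1 in none was found at 4.19% of all protein-coding genes and, of the 10 genes, at Meis1 alone. When the starts of noncoding transcripts of the gene were added, H3K4me1 peaks in all 3 lists touched a Meis1 start.

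Prrx1, a regulator of limb and craniofacial mesenchyme, spans chr1:163245119-163313710 on the minus strand. Its H3K27ac promoter peak measured 4191 bp, 2097 bp and 4810 bp, of which that in replicate 2 was of ordinary width, beside a median of 2081 bp over the marked genes of that list. H3K4me1 touched the promoter only in replicate 2 with a peak of 727 bp at its upstream edge. Meox2, a factor of somites and of vascular smooth muscle, spans chr12:37108540-37179534 on the plus strand. Its H3K4me1 peaks covered the start in all 3 lists, with widths of 1424 bp, 1241 bp and 319 bp. H3K27ac at Meox2 reached only 674 bp and 239 bp in replicates 1 and 2, downstream of the start, with none in replicate 3. No Meox2 promoter peak in a replicate list had a −log10 p-value of 1.3 or more, and the pooled H3K27ac list had no peak anywhere in its window.

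Osr2 and Foxf1 marked the ends of the range. Osr2, a factor of palate and limb mesenchyme at chr15:35296098-35303305 on the plus strand, was the only member with promoter peaks in all 6 lists. Its H3K27ac peaks measured 10017 bp, 9738 bp and 6992 bp and its H3K4me1 peaks 4389 bp, 4173 bp and 689 bp. Foxf1, a hedgehog-responsive factor of visceral mesenchyme at chr8:121084386-121088144 on the plus strand, had no promoter peak in any of the 6 replicate lists or in either pooled list. A promoter without a peak in the 6 lists was found at 32.8% of all genes. The share with promoter peaks in all 6 lists was not computed and cannot exceed the 27.9% with H3K4me1 in all 3. The promoters of Fendrr, Foxc2 and Foxl1 in the same window were also without peaks, while that of Mthfsd had H3K27ac in all 3 lists. Whether a peak could have been called at the Foxf1 promoter itself was not tested.

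H3K4me1 promoter peaks in all 3 lists were found at 3 of the 10 genes, Nr2f1, Meox2 and Osr2, against 27.9% of all genes. Both marks in at least 2 of 3 lists each were found at 4, Nr2f2, Tcf21, Meox2 and Osr2, against 39.1%. The authors' per-peak significance separated the marks further. Once peaks with a −log10 p-value, averaged over the peak, below 1.3 were left out, H3K27ac in all 3 lists was kept by 5 members (all but Tcf21 of the 6) and by 30.2% of all genes. For H3K4me1 the same rule left 0 members and 5.03% of all genes. The H3K4me1 calls at these promoters thus rest on peaks near the limit of calling, and their presence or absence in a list is read here with that limit.

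**Figure D2:**
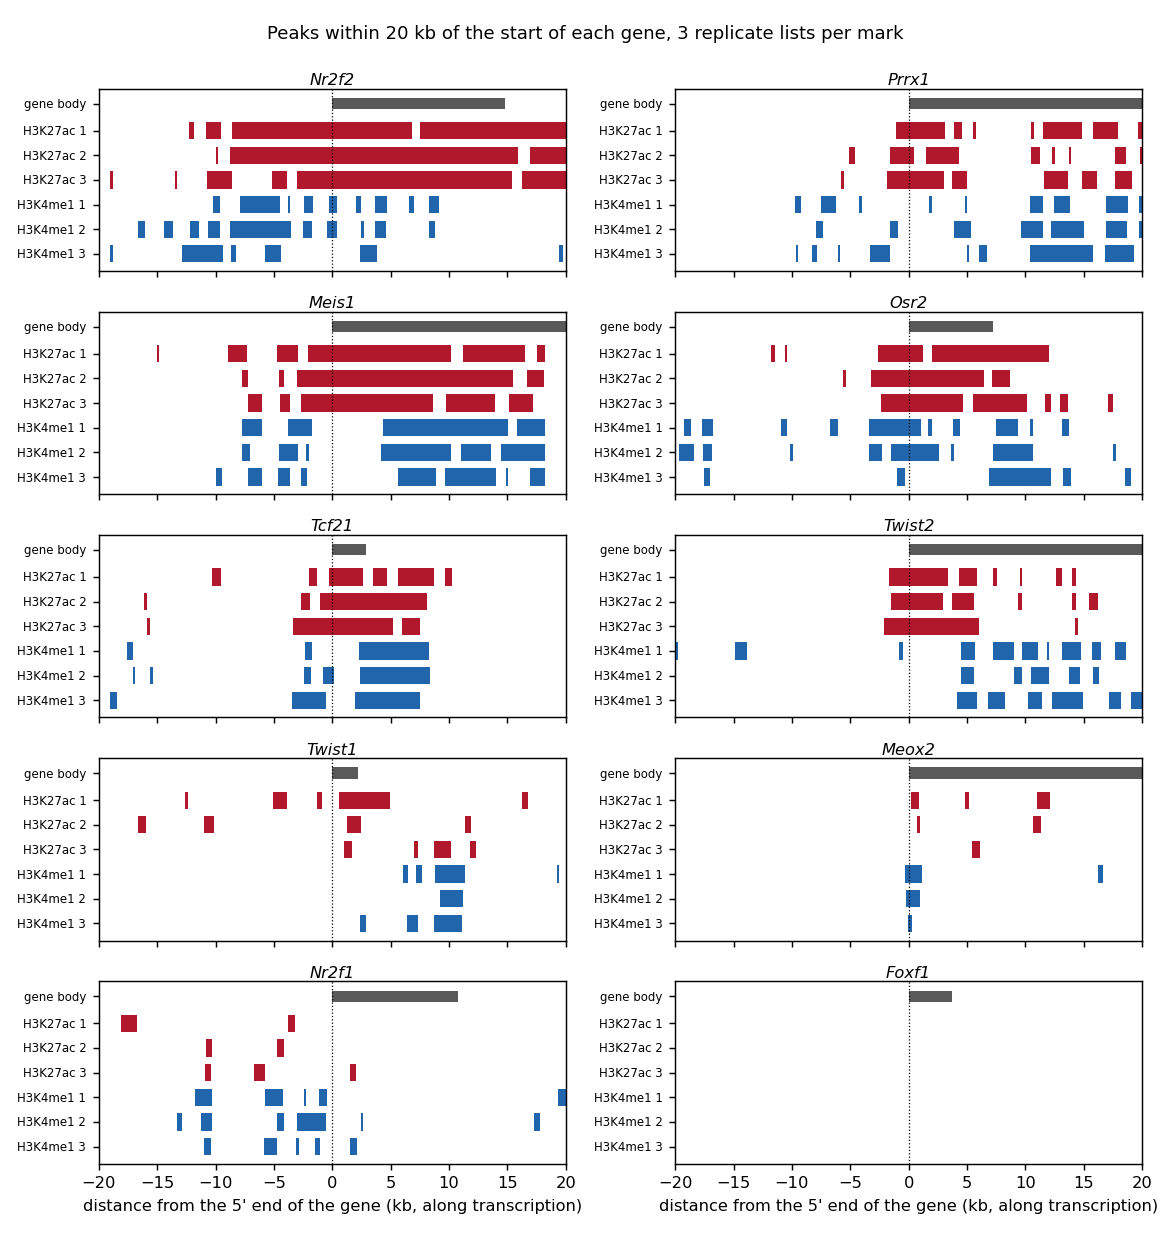
Peaks within 20 kb of the 5′ end of each gene, drawn to scale along the direction of transcription (distance in kb), with H3K27ac in red and H3K4me1 in blue, a row for each of the 3 replicate lists, and the gene body in grey. H3K27ac runs across the start of Nr2f2, Prrx1, Meis1, Osr2, Tcf21 and Twist2, H3K4me1 lies mostly to either side of it, and Foxf1 has no peak in this range.

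Where H3K27ac covered the 5′ end of the gene in all 3 lists, the space left by H3K4me1 could be measured. This held for 6 members and for 5388 genes in all, or 24.7%. At Meis1 the stretch around the 5′ end without H3K4me1 peaks was 6098 bp, 6147 bp and 7853 bp long in the 3 lists. It reached 1724 bp to 2202 bp upstream and 4147 bp to 5652 bp downstream, so it was longer on the side of the gene body. At Prrx1 the stretch was 5706 bp, 4832 bp and 6573 bp long. Among the 5388 genes these lengths lay at percentiles 58.5 to 62.9 for Meis1 and 57.0 to 62.3 for Prrx1, not far above the middle. In the pooled H3K4me1 list the stretches were 3624 bp at Meis1 and 2617 bp at Prrx1, at the higher percentiles of 84.3 and 82.2. Of the 6 members Twist2 had the longest stretches in replicates 2 and 3, with 4953 bp, 34827 bp and 27342 bp in the 3 lists at percentiles 61.1 to 78.7. Nr2f2 and Osr2 differed between lists: H3K4me1 covered the 5′ end in replicates 1 and 2, and in replicate 3 stretches of 6802 bp and 7212 bp lay free of it.

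The median stretch over the 6 members was 4490 bp, 2416 bp and 7007 bp, and over the 5388 genes 2111 bp, 2376 bp and 2622 bp. In replicate 2 the medians of the members and of all such genes were nearly equal, so a longer stretch at the members was not seen in every replicate list. In the pooled H3K4me1 list the medians were 3120.5 bp over the members and 773 bp over all such genes. Shares of genes with a peak at a given position showed the reach of the marks. At 5 kb downstream of the 5′ end, H3K27ac peaks were present at 66.7%, 83.3% and 66.7% of the 6 members against 18.5%, 18.0% and 15.6% of all such genes. At 5 kb upstream the shares of the members were lower, at 16.7%, 33.3% and 16.7%, beside 12.9%, 11.7% and 9.503%. H3K4me1 peaks at 5 kb downstream were likewise present at a higher share of the members, 50.0%, 66.7% and 50.0% against 23.7%, 24.1% and 23.8%, so the reach in that direction was not particular to H3K27ac.

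**Figure D3:**
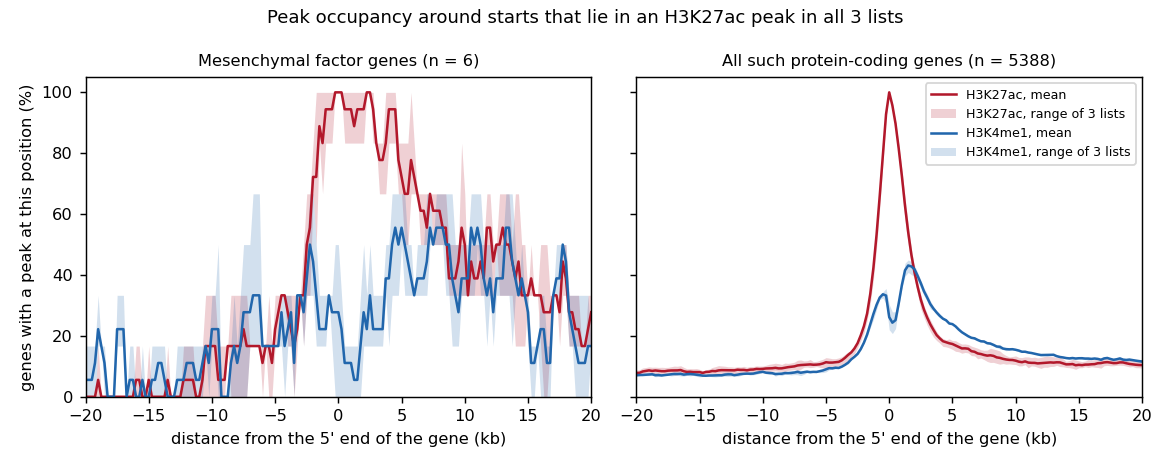
Share of genes (%) with a peak at each distance (kb, along transcription) from the 5′ end, for the 6 members and the 5388 protein-coding genes whose 5′ end lay in an H3K27ac peak in all 3 lists; lines are means over 3 lists and bands their range. H3K27ac is at 100% at position 0 by the choice of genes, and at 5 kb downstream it is at 66.7% to 83.3% of the members and 15.6% to 18.5% of all such genes.

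The share of each window covered by peaks was then compared between marks. A window is the gene body with its 50 kb flanks, and peaks of any size count by their length. The member median was 11.1% ± 0.401 (SD, n = 3 lists) for H3K27ac and 12.1% ± 1.01 for H3K4me1. This order turned with peaks of −log10 p-value 1.3 or more (4.85% and 2.47%) and with flanks of 20 kb (18.5% and 18.1%). It was kept with flanks of 100 kb (10.4% and 13.4%). Over all 21853 protein-coding genes the medians were 4.81% ± 0.698 and 4.33% ± 0.405. The marks were compared at the 20623 of them with any peak in their window, called tested genes below. The members ranged from windows almost without peaks to windows covered over a large part of their length.

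**Figure D4:**
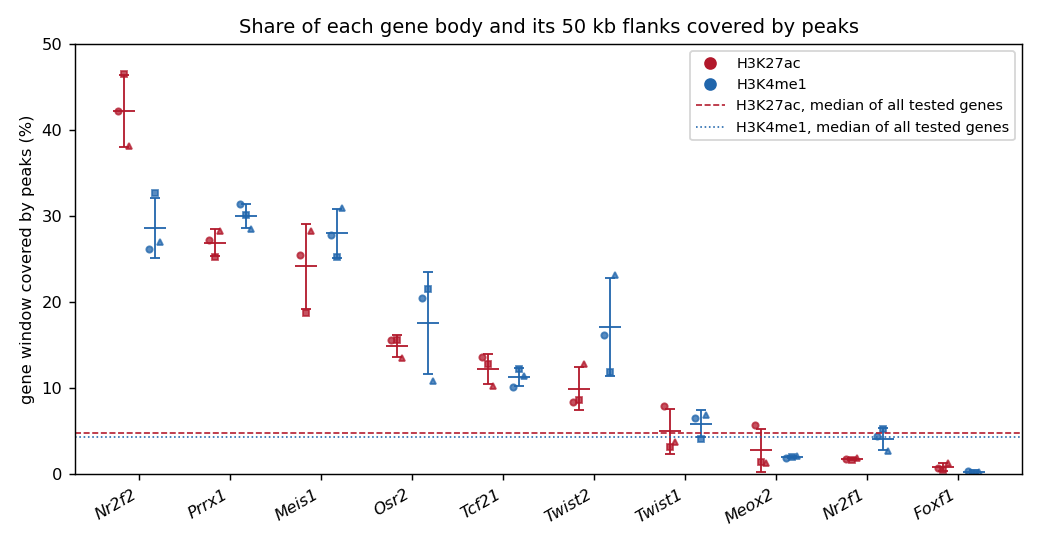
Share (%) of each gene window (gene body and 50 kb on either side) covered by H3K27ac peaks (red) and H3K4me1 peaks (blue). Small symbols are the 3 replicate lists and horizontal ticks with bars the mean ± SD. Broken lines are the median over all 21853 protein-coding genes (named tested genes in the legend). Nr2f2, Prrx1, Meis1, Osr2, Tcf21 and Twist2 lie above both medians in every list, and Foxf1 lies below both in every list.

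All 3 H3K27ac lists lay above all 3 H3K4me1 lists at 2 members, Nr2f2 and Foxf1, and at 19.4% of all tested genes. Nr2f2 had 42.2%, 46.5% and 38.1% of its window under H3K27ac peaks, which placed it above 99.8% of genes in each list. H3K4me1 covered 26.2%, 32.6% and 26.98%. The means were 42.3% ± 4.19 and 28.6% ± 3.51 (SD, n = 3 each), with H3K4me1 minus H3K27ac at -13.7 percentage points (exact permutation test, two-sided, p = 0.1, adjusted p = 0.299). This p is the smallest that 3 lists against 3 can give, so no gene could pass 0.05. Within the shared IgG libraries H3K4me1 minus H3K27ac was -20.3, -13.8 and -11.1 percentage points in the 3 pairs of lists. The size of the difference depended on the setting, at -44.4 with flanks of 20 kb, -29.5 with peaks of −log10 p-value 1.3 or more and -5.40 with flanks of 100 kb, where the lists of the marks overlapped.

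Foxf1 had 0.687%, 0.482% and 1.301% of its window under H3K27ac and 0.404%, 0% and 0.305% under H3K4me1 (exact permutation p = 0.1, adjusted p = 0.299). Its H3K27ac values rested on 1, 1 and 3 flanking peaks, with a peak at the promoter of Mthfsd in each list. Within the shared IgG libraries H3K4me1 minus H3K27ac was -0.0781, -0.482 and -0.997 percentage points. The order was lost with flanks of 100 kb and with peaks of −log10 p-value 1.3 or more, where the difference was -0.0944 percentage points (exact permutation p = 1.0).

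The opposite order, with all 3 H3K4me1 lists above all 3 H3K27ac lists, was found at 2 members, Nr2f1 and Prrx1, and at 14.0% of all tested genes. Nr2f1 had 4.41%, 5.24% and 2.71% of its window under H3K4me1 peaks and 1.81%, 1.69% and 1.87% under H3K27ac peaks, all from a few small peaks (exact permutation p = 0.1, adjusted p = 0.299). In pairs with a shared IgG library H3K4me1 at Nr2f1 was higher by 2.72, 3.54 and 0.845 percentage points. With peaks of −log10 p-value 1.3 or more the order was lost, and the difference fell from 2.33 to 0.114 percentage points (exact permutation p = 0.4). Prrx1 had 31.4%, 30.2% and 28.5% under H3K4me1 and 27.2%, 25.3% and 28.3% under H3K27ac (exact permutation p = 0.1, adjusted p = 0.299). Its lists almost touched: within IgG replicate 3 the difference was 0.202 percentage points, and it turned in sign when coverage was divided by the share of the genome that each list covered. With the same filter on the p-value the difference at Prrx1 was 0.443 percentage points in place of 3.10 (exact permutation p = 0.9).

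The other 6 members had overlapping lists. Meis1 had 24.2% ± 4.94 under H3K27ac and 28.0% ± 2.84 under H3K4me1 (exact permutation p = 0.5). Twist2 had 9.96% ± 2.49 and 17.1% ± 5.70 (exact permutation p = 0.2), with H3K4me1 of replicate 3 at 23.2% and of replicate 2 at 11.9%. Osr2 had 14.9% ± 1.24 and 17.6% ± 5.90, where H3K4me1 replicate 3 at 10.8% lay far below the 20.5% and 21.5% of the other lists. Tcf21 had 12.2% ± 1.78 and 11.3% ± 1.04, and Twist1 4.97% ± 2.62 and 5.88% ± 1.53. Meox2 had 2.79% ± 2.49 under H3K27ac, where replicate 1 at 5.67% exceeded the other lists at 1.45% and 1.27%, and 1.99% ± 0.154 under H3K4me1.

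Between lists called against a shared IgG library, H3K4me1 was higher in every pair at 4 of these 6 members, at 6 of the 10 in all and at 30.8% of all tested genes. H3K27ac replicate 1 entered no such pair, and H3K27ac replicate 2 entered 2 of the 3. H3K4me1 minus H3K27ac was 7.51, 3.23 and 10.4 percentage points at Twist2, 9.13, 6.51 and 2.57 at Meis1 and 3.37, 0.915 and 3.22 at Twist1. At Meox2 it was 0.387, 0.566 and 0.870, against -0.80 over all lists. At Tcf21 and Osr2 the pairs differed in sign. With peaks of −log10 p-value 1.3 or more, the mean difference over all lists turned negative at Twist2 (-0.162), Meis1 (-0.142) and Twist1 (-1.24).

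The marks also occupied different places within the windows. At Twist2 H3K4me1 covered 34.6%, 22.1% and 55.2% of the gene body and H3K27ac 16.2%, 13.4% and 21.3%, so H3K4me1 was higher in every list there. At Osr2, a short gene, H3K27ac covered 88.7%, 90.7% and 87.2% of the gene body and H3K4me1 27.2%, 39.3% and 4.09%, while the lists of the marks overlapped over the whole window. At Prrx1 the marks covered like shares of the gene body, 48.3%, 47.3% and 52.2% for H3K27ac and 54.3%, 52.7% and 52.8% for H3K4me1. In the pairs of lists called against a shared IgG library, 65.7% to 82.4% of the H3K27ac sequence of the Prrx1 window lay under H3K4me1 peaks. The shares were 69.4% to 72.3% at Meis1, 61.3% to 71.2% at Tcf21 and 32.1% to 51.3% at Twist2. In the 6 pairs called against different IgG libraries they were 57.4% to 65.9% at Prrx1, 39.8% to 52.6% at Meis1, 35.7% to 57.3% at Tcf21 and 22.4% to 39.4% at Twist2. The overlap of the marks was thus mostly higher where the control was shared, and the part of the control in it was not tested.

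Regions away from promoters that carried both marks are the usual candidates for enhancers. A distal region was counted where H3K27ac peaks of at least 2 of 3 lists overlapped H3K4me1 peaks of at least 2 of 3 lists by 1 bp or more, and where it touched no promoter window of a protein-coding gene. The 10 windows held 71 such regions of the 39000 in the genome. Meis1 held 34, Prrx1 15, Nr2f2 10, Twist2 6 and Tcf21 3, while Nr2f1, Meox2 and Osr2 held 1 each and Twist1 and Foxf1 0. The median over all protein-coding genes was 1. Windows differ in length, and per 100 kb Meis1 held 14.2 regions, Prrx1 8.90 and Nr2f2 8.71, against a median of 0.797 over all genes.

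The regions of Meis1 and Prrx1 lay mostly inside the genes, 28 of 34 and 12 of 15, and those of Nr2f2 all lay outside the gene. Acetylated sequence that ran on into a promoter was counted with the promoter and not as a distal region. The longest region of Prrx1 extended over 14091 bp and that of Nr2f2 over 9413 bp. At Osr2 the region was 2 bp long. The count rested on weak peaks, since it was 3 in place of 71 once peaks below a −log10 p-value of 1.3 were left out.

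Sequence covered by all 6 lists, in stretches that touched no promoter window of a protein-coding gene, was found in the windows of 6 of the 10 genes and of 40.9% of all protein-coding genes. The longest such stretch was 4841 bp at Prrx1 (chr1:163282607-163287447), 2990 bp at Meis1 (chr11:19010344-19013333), 1495 bp at Tcf21 (chr10:22812705-22814199), 1166 bp at Osr2 (chr15:35303627-35304792), 1084 bp at Twist2 (chr1:91805970-91807053) and 938 bp at Nr2f2 (chr7:70343547-70344484). Each lay downstream of the 5′ end of its gene, with midpoints 5050 bp to 28683 bp away. The stretch in Prrx1 held 1134 bp of its exons and 559 bp of exons of the antisense gene Gm20471, that in Meis1 held 1123 bp of its exons and 840 bp of those of Gm16140, and that in Twist2 was intronic. Those of Tcf21, Osr2 and Nr2f2 lay outside any annotated exon, beyond the end of the gene. Summed over stretches, 14337 bp of the Prrx1 window and 8117 bp of the Meis1 window were covered by all 6 lists, and 0 bp at Nr2f1, Twist1, Meox2 and Foxf1.

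Motifs of some of the factors, of AP-1 and of serum response factor were searched in the central 300 bp of all 6 stretches, where the lists of both marks coincided. The 4 centres shown are those with a motif match, and those of Nr2f2 and Meis1 held 0 matches. They are written on the plus strand of GRCm38 with motif matches in capitals.
Prrx1 region, chr1:163284877-163285176, plus strand: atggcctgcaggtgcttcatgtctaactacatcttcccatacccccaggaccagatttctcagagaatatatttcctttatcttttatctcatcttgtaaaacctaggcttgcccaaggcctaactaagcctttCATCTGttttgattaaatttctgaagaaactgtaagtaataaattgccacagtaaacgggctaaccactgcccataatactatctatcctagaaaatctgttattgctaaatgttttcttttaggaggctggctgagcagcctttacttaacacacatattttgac
Tcf21 region, chr10:22813302-22813601, plus strand: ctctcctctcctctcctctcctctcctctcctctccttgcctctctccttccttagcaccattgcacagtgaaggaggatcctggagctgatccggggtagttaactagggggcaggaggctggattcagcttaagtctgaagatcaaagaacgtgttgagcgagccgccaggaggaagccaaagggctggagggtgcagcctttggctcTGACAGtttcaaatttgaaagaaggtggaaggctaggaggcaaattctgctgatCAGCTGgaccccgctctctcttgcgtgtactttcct
Twist2 region, chr1:91806361-91806660, plus strand: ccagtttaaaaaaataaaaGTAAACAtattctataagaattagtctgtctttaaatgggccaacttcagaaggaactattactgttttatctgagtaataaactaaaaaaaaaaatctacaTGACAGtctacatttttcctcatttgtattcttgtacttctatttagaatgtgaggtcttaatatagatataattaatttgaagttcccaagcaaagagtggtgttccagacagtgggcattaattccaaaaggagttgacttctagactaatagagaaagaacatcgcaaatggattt
Osr2 region, chr15:35304059-35304358, plus strand: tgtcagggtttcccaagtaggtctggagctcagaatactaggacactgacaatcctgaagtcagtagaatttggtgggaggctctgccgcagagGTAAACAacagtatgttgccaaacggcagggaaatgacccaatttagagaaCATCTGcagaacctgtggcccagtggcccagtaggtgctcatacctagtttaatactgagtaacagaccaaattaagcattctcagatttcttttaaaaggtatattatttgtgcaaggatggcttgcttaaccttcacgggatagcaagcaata

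The motifs searched on both strands were TGANTCA (AP-1), AGGTCA (the core of nuclear receptor sites), TGACAG (Meis), TGTTTAC (forkhead), CAGCTG and CATCTG (E-boxes) and the CArG box of serum response factor. In the 6 centres, TGACAG was found at Tcf21 and Twist2, TGTTTAC at Twist2 and Osr2, CAGCTG at Tcf21 and CATCTG at Prrx1 and Osr2. Among the 9095 stretches of at least 300 bp covered by all 6 lists, TGACAG was found in 18.7% of the central 300 bp, TGTTTAC in 6.43%, CAGCTG in 13.3% and CATCTG in 22.2%. AP-1 matches were found in 14.1%, AGGTCA in 17.4% and CArG boxes in 1.98%, and in 0 of the 6 centres at the members. In the promoters of the 8 matched genes, TGACAG was found at Twist2, and TGTTTAC and CATCTG at an entry of Nr2f1. Of all 32841 promoters 19.2% held TGACAG, 3.65% TGTTTAC, 17.2% CATCTG, 16.3% CAGCTG, 16.3% AGGTCA, 7.81% the AP-1 motif and 1.63% the CArG box. No 2 motifs overlapped in the members' sequences. A match is a string of letters and does not show binding.

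Genes related to the members by sequence or by dimer were marked in their own ways. Of 8 close relatives, 5 had H3K27ac promoter peaks in all 3 lists, beside 45.9% of all genes. Prrx2 and Osr1 had promoter peaks in all 6 lists. Meox1 and Foxf2, the nearest relatives of Meox2 and Foxf1, had none in any, as had 32.8% of all genes. The H3K27ac peaks of Osr1 measured 2574 bp, 1350 bp and 1441 bp, below every one of Osr2.

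All 7 dimer partners examined had H3K27ac promoter peaks in all 3 lists, beside 45.9% of all genes, and 4 of them, Tcf4, Tcf12, Pbx2 and Pbx3, had promoter peaks in all 6. Tcf4, an E protein that pairs with Twist and Tcf21 proteins, had H3K27ac peaks of 13697 bp, 17339 bp and 13621 bp and H3K4me1 peaks of 8275 bp, 9232 bp and 10453 bp. Tcf12, another E protein, had H3K4me1 peaks of 7236 bp, 7260 bp and 17231 bp. Wide H3K4me1 peaks at a promoter were thus called in these lists at other genes, though at no member were they wider than 4389 bp.

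Of 8 other regulators of the mesenchymal state, 4 had H3K27ac promoter peaks in all 3 lists, beside 45.9% of all genes. Snai2, Zeb1 and Zeb2, repressors of epithelial genes, had promoter peaks in all 6 lists. Foxc2 and Hand1 had none in any, as had 32.8% of all genes. Zeb2 had H3K27ac peaks of 12180 bp, 13399 bp and 15009 bp and H3K4me1 peaks of 4768 bp, 6956 bp and 6592 bp, both wide at the same promoter. Other protein-coding genes with a promoter peak inside the windows were few. Ferd3l in the Twist1 window had H3K4me1 in 2 lists, and Mthfsd in the Foxf1 window had H3K27ac in 3.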

How the data were processed

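H3K27ac and H3K4me1 were mapped by ChIC-Seq in oviductal muscle cells of WT mice, with IgG as control, in 3 libraries each. Per the labels' processing notes the authors used cutadapt, Bowtie2 and GRCm38.p5, with versions not given in the sources used here. Per the file headers peak calling by the authors used MACS 2.2.7.1 on paired ends with the broad option (p-value 0.05 for strong and 0.1 for weak regions), for each replicate and for each mark on 3 libraries together. The deposited pileup is a coverage signal scaled by the authors' call to the IgG depth and averaged over the broad region, so the IgG depth limits how weak a peak can be called. The deposited fold enrichment, a ratio of pileup to local background after adding 1 to each, was not compared between lists. The deposited −log10 p-value is likewise a mean over the region. The IgG libraries had no lists of their own.

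Peak positions were intersected with GENCODE release 21 in Python 3 scripts (pandas and numpy) that were tested on simulated peaks. The members and all gene lists were chosen with earlier results of these data known. Window coverage is the share of the gene body and its 50 kb flanks that the merged peaks of a list cover. It was compared between marks for each of 20623 genes by an exact two-sided permutation test over the 20 assignments of 6 lists, with Benjamini-Hochberg adjustment over all of them, where the smallest p is 0.1. Nothing in the labels says whether replicates came from separate animals or cultures, so p-values measure only the spread between lists. Genes were named by role: all 10 members, of the related lists those with promoter peaks in all 6 lists or in none, and coding neighbours with a promoter peak. A gene of the dimer partner list is not reported here. Alternatives changed the peak filters, the promoter window, the starts, the flanks, the scaling, the lists left out, the use of pooled lists, and the overlap and consensus for distal regions.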

Additional observations from a re-analysis of the deposited data

How the results depend on the processing

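Of 224 recomputed values that the setting could change, 16 turned in sign and 31 moved, a count by over 1.5 times or a median by more than its SD over lists; the cause was not tested. The other 177 were counted as keeping the sign of a difference or staying within those limits. They include the difference at Meox2 that fell to 0 with peaks of −log10 p-value 1.3 or more. Sizes varied: of 107 differences counted as of the same sign and unit, 45 moved by over 1.5 times. With peaks of −log10 p-value 1.3 or more, 0 members had H3K4me1 promoter peaks in all 3 lists, 0 had both marks, and 0 had every H3K4me1 list above H3K27ac; the medians of window coverage were 4.85% for H3K27ac and 2.47% for H3K4me1, 3 distal regions were left, and H3K4me1 minus H3K27ac (percentage points) became -1.24 at Twist1, -0.162 at Twist2, -7.18 at Osr2 and -0.142 at Meis1. With a pileup of 5 times the mean coverage or more the H3K27ac median was 10.2%, and the difference was 0.624 at Tcf21 and 1.39 at Meox2. In the pooled lists 6 members had H3K4me1 promoter peaks, 8 had more H3K4me1 coverage, the medians were 11.9% and 18.0%, and the difference was 2.29 at Tcf21 and 2.21 at Meox2. Promoter windows of 250 bp gave 1 member with H3K4me1 in all 3 lists and 2 with both marks, windows of 3 kb gave 7 with H3K4me1, starts of all transcripts 5, and coverage of at least 50% of the window 0 with H3K4me1 and 1 with both. Flanks of 20 kb gave 4 members with H3K27ac above H3K4me1, medians of 18.5% and 18.1%, and differences of -1.01 at Twist1 and -6.39 at Osr2. Flanks of 100 kb gave 0 such members, medians of 10.4% and 13.4%, and 1.38 at Tcf21. Divided by the share of the genome covered, 1 member had H3K4me1 above H3K27ac, the medians were 2.80 and 2.46 times the genome, and the difference in that unit was -0.681 at Prrx1, -0.156 at Osr2 and -0.392 at Meis1. Within shared IgG libraries 6 members had H3K4me1 higher in every pair, and the difference at Meox2 was 0.673. A consensus of all 3 replicates gave 32 distal regions.

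Leaving out each list in turn gave 6 to 7 members with H3K27ac promoter peaks, 3 to 4 with H3K4me1, 2 to 4 with both marks (2 without H3K4me1 replicate 2), 2 to 4 with H3K4me1 above (4 without H3K27ac replicate 1), 2 to 3 with H3K27ac above and 48 to 62 distal regions; the difference at Meox2 ran from -1.56 to 0.637, positive without H3K27ac replicate 1. Same-numbered lists of the marks did not all deviate together (correlations over genes of -0.0517, 0.284 and 0.406 for numbers 1, 2 and 3), so the numbers were not taken as pairs. Pairs called against the same IgG library correlated at 0.260, 0.284 and 0.406, and the other pairs at -0.410 to 0.0335. The exact permutation test over the 6 lists does not take this sharing into account. With the replicate block 4 members had H3K4me1 higher in every pair and the smallest p is 0.25; the block leaves each mean difference as it was. The block has no meaning for the medians of a mark.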

Other observations

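The windows of the 10 genes also held the starts of 27 noncoding or pseudogene transcripts, which were listed after the values of the members were seen. Both marks touched the 1 kb on either side of the start in all 3 lists at 8 of the 27, and 7 had no peak there in any list. Over all 33475 noncoding genes and pseudogenes of the annotation these shares were 5.33% and 67.2%. The 8 lay next to 4 members. They were B130024G19Rik and Gm44946 near Nr2f2, the antisense gene Gm10824 near Tcf21, Gm20471 and Gm37644 near Prrx1, and 2610001A08Rik, Gm16140 and Gm16141 near Meis1. Gm10824 starts 4410 bp from the nearest start of Tcf21 and Gm16141 4897 bp from that of Meis1. At Foxf1 the divergent transcript Fendrr, 1276 bp away, and at Meox2 the lincRNA Gm29007, 1751 bp away, had no peak of either mark at their starts. Peak lists carry no strand, so a peak at such a start cannot be told apart from one that belongs to the neighbouring factor gene.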
